A study of Mus musculus with 18 samples.

Results

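The genes described here encode the largest proteins of the muscle sarcomere and the proteins that tie its myosin filaments together. They are *Ttn* and *Neb* with the nebulin relative *Nrap*, the 3 myomesin genes *Myom1*, *Myom2* and *Myom3*, and the myosin-binding protein genes *Mybpc1*, *Mybpc2* and *Mybph*. They were chosen by name as a set of 9 genes, with no measured value in the rule but with earlier results of these data known. Of these 9 genes, 8 were found by their Ensembl identifiers among the 19153 genes with a value in each library, and *Mybpc2* was not analysed here. Levels are given in CPM, the counts of a gene relative to the size of its library, as scaled between libraries by the authors.

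RNA was sequenced from 18 libraries of immortalized mouse myoblasts, with 3 replicates in each of 6 groups. All of the cells, controls included, came from a p53 knockout mouse. Wildtype (WT) cells had received a Cas9 plasmid with no guide, and knockout (KO) cells the same plasmid with a guide against LAP2α, a nucleoplasmic isoform encoded by *Tmpo* that binds A-type lamins. Both genotypes were populations sorted for EGFP rather than single clones. WT_Prol and KO_Prol cells were proliferating below confluence in medium with 20% serum, WT_D0 and KO_D0 cells had just become confluent, and WT_D2 and KO_D2 cells had spent 48 h in 5% serum, which starts their differentiation into myotubes. The labels number the replicates but do not say whether these were separate cultures, so the p-values measure the spread between these libraries, which may be technical.

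In striated muscle, titin spans the sarcomere from the Z-disc to the M-band and works as its ruler and spring, and nebulin lies along the thin filament of skeletal muscle. Myomesins cross-link myosin filaments and titin at the M-band in the middle of the sarcomere, while myosin-binding protein C and its small relative, myosin-binding protein H, sit in stripes on the thick filament to either side. Nrap is a scaffold of forming myofibrils. These genes are switched on during myogenic differentiation by factors such as MyoD and myogenin, which bind E-boxes, and by MEF2 proteins.

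On GRCm38, in the GENCODE M21 annotation, *Ttn* (ENSMUSG00000051747) lies on the minus strand of chromosome 2 from 76703980 to 76982547, with a longest transcript of 106824 bases in 347 exons. *Neb* (ENSMUSG00000026950) is on the same strand of chromosome 2, from 52136647 to 52378474, with a longest transcript of 22489 bases in 157 exons. The other members are far shorter. The longest transcript has 5501 bases for *Nrap* (chromosome 19), 5648 for *Myom1* (chromosome 17), 5075 for *Myom2* (chromosome 8), 5575 for *Myom3* (chromosome 4), 3922 for *Mybpc1* (chromosome 10) and 2320 for *Mybph* (chromosome 1).

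RefSeq promoters of GRCm38.p6, from 250 bases before to 50 bases after the start site, were at hand for 7 of the 9 genes and for 6 of the 8 with values, *Neb* and *Myom2* being the others. Of these, 3 are shown because they belong to a giant, a filament-stripe and a small myosin-binding protein whose transcripts changed together below. They are *Ttn* at chr2:76982498-76982797 on the minus strand, *Mybpc1* at chr10:88605103-88605402 on the minus strand and *Mybph* at chr1:134193198-134193497 on the plus strand. Sequences run 5′ to 3′, and capitals mark E-boxes (CANNTG, the same on both strands).
Ttn promoter: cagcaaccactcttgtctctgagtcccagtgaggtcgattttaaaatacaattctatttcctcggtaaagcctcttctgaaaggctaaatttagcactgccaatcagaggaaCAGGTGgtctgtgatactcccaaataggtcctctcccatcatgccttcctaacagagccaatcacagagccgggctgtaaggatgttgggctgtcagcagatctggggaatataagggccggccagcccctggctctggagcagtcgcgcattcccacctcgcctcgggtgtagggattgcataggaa
Mybpc1 promoter: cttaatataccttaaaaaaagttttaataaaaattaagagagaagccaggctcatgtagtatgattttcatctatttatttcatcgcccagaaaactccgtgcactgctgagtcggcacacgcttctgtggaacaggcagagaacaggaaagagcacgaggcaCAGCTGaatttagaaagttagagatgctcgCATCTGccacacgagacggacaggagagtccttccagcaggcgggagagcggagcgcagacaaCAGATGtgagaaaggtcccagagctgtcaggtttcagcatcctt
Mybph promoter: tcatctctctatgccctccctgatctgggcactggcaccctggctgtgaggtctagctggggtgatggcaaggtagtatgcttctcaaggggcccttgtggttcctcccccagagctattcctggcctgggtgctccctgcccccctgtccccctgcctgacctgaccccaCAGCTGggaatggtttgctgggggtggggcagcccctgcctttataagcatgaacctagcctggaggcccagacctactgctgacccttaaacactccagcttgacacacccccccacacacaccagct
Each of the 6 promoters held at least 1 E-box, as did 72.3% of all 32851 promoters of this length. There were 3 E-boxes in *Mybpc1*, *Myom1* and *Nrap*, a number reached in 17.6% of all promoters, and 1 in *Ttn*, *Myom3* and *Mybph*. The E-box form CAGCTG was present in *Mybph*, *Mybpc1* and *Nrap*, as in 16.3% of all promoters. The MEF2 consensus, searched on both strands, was found in *Ttn* and *Myom3* and in 1.86% of all promoters. These matches describe letters in a window and not binding.

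The libraries held 26437823 to 41619016 expected counts (median 32939620), so that 3 counts corresponded to 0.0651 to 0.119 CPM. *Tmpo*, whose counts sum all LAP2 isoforms, was at 228 to 260.4 CPM in KO Prol, below the 274.7 to 314.6 CPM of WT Prol. The genotypes overlapped at D0 (191 to 259.1 CPM in KO, 239.4 to 301.9 CPM in WT) and at D2 (94.5 to 157.2 CPM in KO, 106 to 157.4 CPM in WT). The level of *Tmpo* does not by itself check the loss of LAP2α. The cells were checked against markers of their type. Of 5 myoblast markers 4 had values, and their summed level lay between 28.4 and 48.1 CPM in all Prol and D0 libraries, between 335 and 532 CPM in WT D2 and between 225 and 260 CPM in KO D2. Of these 4, 3 were called higher in WT D2/Prol and in KO D2/Prol, beside 16.6% and 17.1% of all genes. The other, *Myf5*, was at 24.5 CPM in WT Prol and 17.6 CPM in WT D2 (limma adjusted p = 0.171). Fibroblast markers (6 of 7 with values) summed to 837 to 2642 CPM in Prol, 747 to 5284 CPM in D0 and 5194 to 24211 CPM in D2, and were highest in replicate 1 of each group. Most of the sum in WT D2 came from 2 collagens, *Col1a1* at 5471 ± 5889 and *Col3a1* at 4371 ± 1956 CPM (SD, n = 3). *Col1a1* was not called in WT D2/Prol (limma adjusted p = 0.098). Of these 6 markers, 5 were called higher in WT D2/Prol and in KO D2/Prol, beside 16.6% and 17.1% of all genes. These markers thus moved with the sarcomere genes below, and their part in those results was not tested. Endothelial (3 of 4), leukocyte (2 of 4) and adipocyte (2 of 4) markers stayed at or below 8 CPM in sum. Of 4 cardiac markers only *Myh6* had values, at 3.29 to 11.4 CPM in WT D2 and 1.97 to 2.89 CPM in KO D2. All 10 proliferation markers fell between Prol and D2 in both genotypes, as did 2484 of the 17672 genes tested in WT and 2679 in KO.

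The first question was how the sarcomere genes changed as the myoblasts differentiated. All 8 genes with values rose from Prol to D2 in WT and in KO cells, from at most 1.71 CPM in any Prol library to between 6.3 and 815 CPM. In a limma fit over the 17672 genes tested, 8 of 8 were called higher in WT D2/Prol (Benjamini-Hochberg adjusted p under 0.05), where 16.6% of all genes were, and 8 of 8 in KO D2/Prol, where 17.1% were. Their median log2 fold change was 8.21 in WT and 7.80 in KO, beside -0.01 and 0.02 over all genes tested. A second rule (unadjusted p under 0.05, more than 1.5-fold, at least 10 CPM in 1 library), called the 1.5-fold rule below, was met by 8 genes in WT, beside 10.8% of all genes, and by 7 in KO, beside 11.3%. With the cut at a log2 fold change of 1.5, as the methods of the study have it, the same rule was again met by 8 and 7 genes, beside 4.41% and 4.65% of all genes. *Myom3*, at up to 8.36 CPM in KO, was the exception. Of the 8 genes, *Myom3*, *Mybpc1* and *Mybph* passed the filter on low counts only through the D2 groups, so these counts describe the genes and are not support for the pattern. Because these are bulk samples, more differentiated cells and more RNA per cell cannot be told apart.

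**Figure D1:**
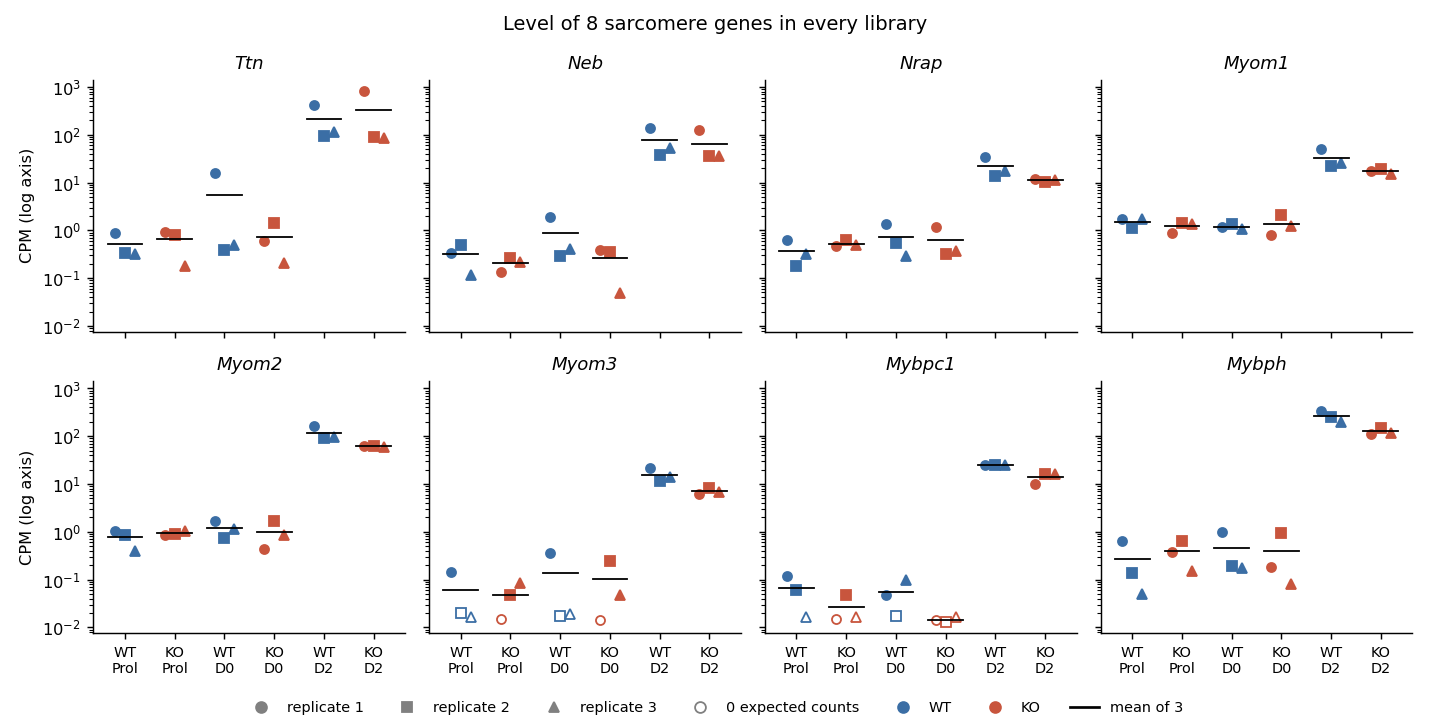
CPM (log axis) of each of the 8 genes in every library of the 6 groups, with blue symbols for WT and red for KO, a symbol shape for each replicate, open symbols for libraries with 0 expected counts and black lines for the means of 3. The D2 libraries lie above all Prol and D0 libraries for every gene, and *Ttn* and *Neb* stand out at D2 by a high replicate 1 in both genotypes.

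Among the giant proteins and their relative, *Ttn* was at 0.87, 0.34 and 0.32 CPM in the WT Prol libraries and at 426.5, 93.0 and 113.6 CPM in WT D2. In KO cells it went from 0.94, 0.80 and 0.18 CPM to 814.6, 90.4 and 84.7 CPM. Every D2 library was far above every Prol library, and in both genotypes replicate 1 was the highest at D2. The log2 fold change was 8.51 (SE 1.25, limma adjusted p = 8.63e-05) in WT and 8.47 (SE 1.25, adjusted p = 9.12e-05) in KO.

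*Neb* lies along the thin filament, and its transcript was also barely counted before differentiation. WT Prol libraries had 0.33, 0.49 and 0.12 CPM and WT D2 libraries 138.2, 36.9 and 52.8 CPM. KO Prol libraries had 0.13, 0.27 and 0.22 CPM and KO D2 libraries 122.9, 35.4 and 36.1 CPM. Again replicate 1 was the highest D2 library of each genotype, and replicates 2 and 3 lay close together. *Neb* rose by 7.91 (SE 0.87, adjusted p = 5.87e-06) in WT and by 8.09 (SE 0.87, adjusted p = 4.95e-06) in KO on the log2 scale.

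*Nrap*, the scaffold related to nebulin, was already counted in each Prol library, at 0.63, 0.18 and 0.32 CPM in WT and 0.46, 0.61 and 0.48 CPM in KO. At D2 it reached 34.5, 13.4 and 17.4 CPM in WT and 11.9, 10.1 and 11.4 CPM in KO. The KO libraries were tightly grouped, and none reached the lowest WT value. Relative to Prol, the log2 fold change was 5.92 (SE 0.59, adjusted p = 2.57e-06) in WT and 4.43 (SE 0.59, adjusted p = 3.74e-05) in KO.

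The 3 myomesins differed in where they started. *Myom1*, the myomesin found in all striated muscle, was at 1.70, 1.13 and 1.71 CPM in WT Prol and 0.88, 1.40 and 1.38 CPM in KO Prol, so it was counted in each Prol library. At D2 it reached 50.5, 22.6 and 25.01 CPM in WT and 17.3, 19.6 and 15.1 CPM in KO, without overlap. With a log2 fold change of 4.37 (SE 0.37, adjusted p = 6.8e-07) in WT and 3.85 (SE 0.37, adjusted p = 1.97e-06) in KO, it had the smallest change of the 8 genes, except that with 1 CPM added *Myom3* and *Nrap* changed less in KO.

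*Myom2*, which encodes the M-protein of fast and cardiac muscle, went from 1.04, 0.87 and 0.40 CPM to 160.1, 92.4 and 97.3 CPM in WT cells. In KO cells it went from 0.86, 0.91 and 1.06 CPM to 61.5, 62.2 and 60.0 CPM. The KO D2 libraries were almost equal, at 61.2 ± 1.1 CPM (SD, n = 3), and each of them was below the lowest WT D2 library. The log2 fold changes were 7.31 (SE 0.45, adjusted p = 4.98e-08) and 6.03 (SE 0.45, adjusted p = 4.83e-07).

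*Myom3*, the third myomesin, was near the detection limit before differentiation. It had 5 expected counts in 1 WT Prol library and 0 in the other two, and 0, 1 and 2 counts in KO Prol. At D2 it stood at 21.3, 11.6 and 14.2 CPM in WT and 6.30, 8.36 and 6.80 CPM in KO, without overlap. The ratio of pooled counts at D2 to those in Prol was 287 in WT (95% interval 123 to 885) and 231 in KO (78.8 to 1122), where the intervals cover counting error only. The fitted log2 fold changes, 8.70 (SE 1.18, adjusted p = 4.28e-05) and 7.51 (SE 1.18, adjusted p = 0.000165), depend on the 0.5 counts added to each value and were 3.94 and 2.95 with 1 CPM added.

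*Mybpc1*, the slow-type myosin-binding protein C, was likewise at 4, 1 and 0 counts in WT Prol and 0, 1 and 0 counts in KO Prol. At D2 the WT libraries agreed closely, with 25.4, 25.5 and 25.5 CPM, and the KO libraries had 10.3, 15.9 and 16.1 CPM. The ratio of pooled counts was 470 (95% interval 201 to 1449) in WT and 1375 (246 to 54334) in KO, the second resting on 1 count in Prol. The fitted log2 fold changes were 9.01 (SE 0.70, limma adjusted p = 3.59e-07) and 9.24 (SE 0.70, adjusted p = 5.14e-07), and with 1 CPM added before taking logarithms they were 4.64 and 3.85.

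*Mybph*, which encodes myosin-binding protein H, rose most in WT cells. It went from 0.63, 0.14 and 0.05 CPM in WT Prol to 335.3, 255.2 and 202.4 CPM in WT D2, a log2 fold change of 10.62 (SE 0.94, adjusted p = 8.65e-07). In KO cells it went from 0.37, 0.64 and 0.15 CPM to 112.2, 149.7 and 115.9 CPM, a log2 fold change of 8.56 (SE 0.94, adjusted p = 5.83e-06). No KO D2 library reached the lowest WT D2 library.

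The step from Prol to D0, when cells became confluent in high serum, was not accompanied by a change in these genes that passed the test. None of the 8 was called in WT D0/Prol, where 0.00566% of all genes (1 gene) were, or in KO D0/Prol, where 0% were. In both comparisons 0 of the 8 had an unadjusted p under 0.05 in the limma fit, and 0 did with voom weights. Single D0 libraries nevertheless stood apart. In WT D0, replicate 1 had 15.8 CPM of *Ttn* where replicates 2 and 3 had 0.40 and 0.49 CPM, and it was the highest of the 3 for *Ttn*, *Neb*, *Nrap*, *Myom2*, *Myom3* and *Mybph*. It also had the most *Myog*, the gene of the differentiation factor myogenin, at 4.53 CPM beside 0.77 and 1.23 CPM. In KO D0 it was replicate 2 that was highest for 5 of the 8 genes (*Ttn*, *Myom1*, *Myom2*, *Myom3* and *Mybph*) and for *Myog*, at 3.15 CPM beside 1.07 and 0.50 CPM. Replicate 1 of WT D0 also ran high for long transcripts over all genes, as given below. The part of *Myog* and of transcript length in these levels was not tested.

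From D0 to D2, 8 of the 8 genes rose in each genotype (limma adjusted p under 0.05), in WT beside 14.7% of all genes and in KO beside 15.3%. These comparisons share the D2 libraries with those against Prol. The log2 fold changes ran from 4.68 for *Myom1* to 9.65 for *Mybph* in WT, and from 3.77 for *Myom1* to 9.02 for *Mybph* in KO where *Mybpc1* is set aside. *Mybpc1* had 0 counts in every KO D0 library, and its pooled level at D2 was at least 502-fold higher than 3 counts over that group would give.

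At D2, replicate 1 differed from replicates 2 and 3 most for the giant genes. Over all genes, the level in replicate 1 relative to the mean of the other two rose with the length of the longest annotated transcript up to 20 kb. In WT D2 the median log2 difference went from -0.58 for 699 genes up to 1 kb to 0.47 for 4069 genes of 4 to 8 kb and 0.91 for 120 genes of 12 to 20 kb, and in KO D2 from -0.65 to 0.33 and 1.02. In D0 the medians went from -0.615 up to 1 kb to 1.038 at 12 to 20 kb in WT, and from -0.509 to 0.604 in KO. In Prol the same medians spanned -0.28 to 0.33 in WT and -0.36 to 0.27 in KO. At D2, *Ttn* exceeded this trend, with a log2 difference of 2.05 in WT and 3.22 in KO, and *Neb* had 1.65 and 1.78. The 17 genes over 20 kb, which include *Ttn* and *Neb*, had medians of 0.88 and 0.81. Most of the shorter members divided by genotype. *Nrap*, *Myom1*, *Myom2*, *Myom3* and *Mybph* were higher in replicate 1 of WT D2 by 0.56 to 1.18, while in KO D2 the same genes differed by -0.26 to 0.15. *Mybpc1* differed by -0.006 in WT D2 and by -0.64 in KO D2. The TMM scaling factors of the D2 libraries also set replicate 1 (0.909 in WT, 0.931 in KO) apart from replicates 2 and 3 (1.11 to 1.18). The part of transcript length, of the fibroblast marker level and of the scaling in the results was not tested. Without replicate 1 of every group, 8 of 8 genes were still called higher in WT D2/Prol and in KO D2/Prol, with log2 fold changes of 8.29 and 7.84 for *Ttn* and 7.52 and 7.22 for *Neb*.

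**Figure D2:**
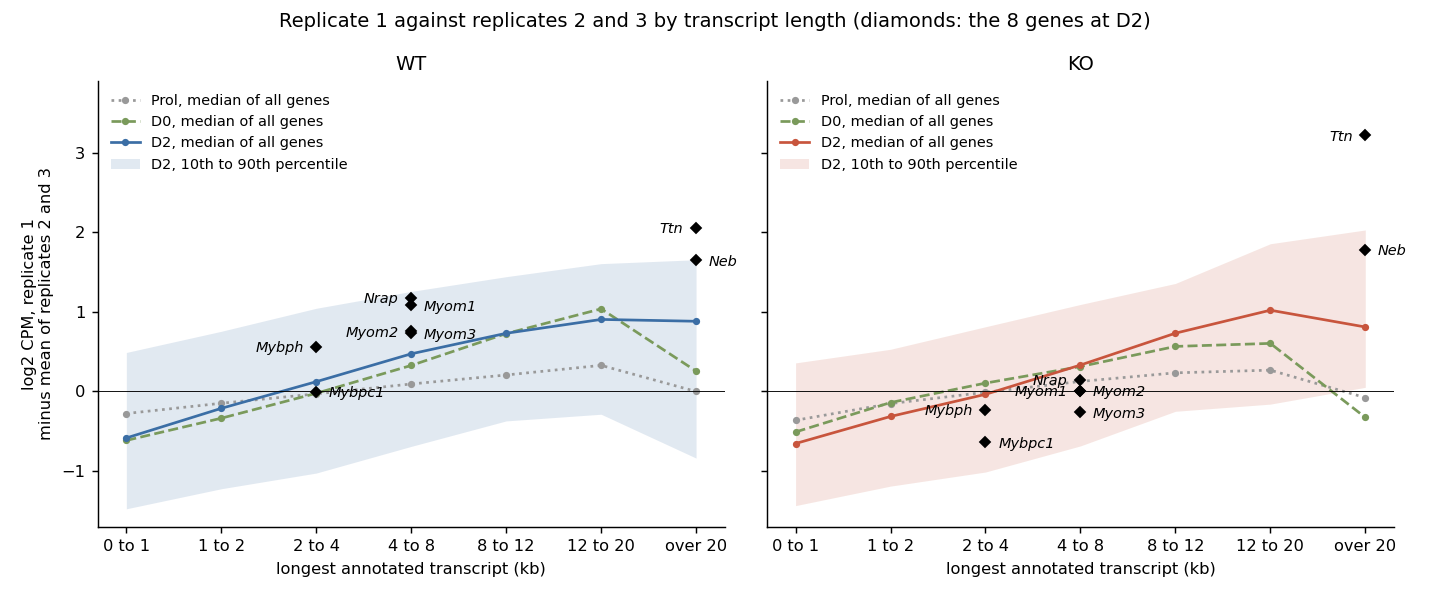
Difference in log2 CPM between replicate 1 and the mean of replicates 2 and 3 (vertical axis) for all genes in classes of longest transcript length in kb (horizontal axis), for WT (left) and KO (right). Lines are medians of all genes in Prol, D0 and D2, the band runs from the 10th to the 90th percentile at D2, and diamonds are the 8 genes at D2, among which *Ttn* lies highest at 2.05 in WT and 3.22 in KO.

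Levels were compared between genes only per kilobase of the longest annotated transcript. In WT D2 the order was *Mybph* at 114 ± 28.8 CPM per kb, *Myom2* at 23.0 ± 7.43, *Mybpc1* at 6.50 ± 0.015, *Myom1* at 5.79 ± 2.73, *Nrap* at 3.95 ± 2.04, *Neb* at 3.38 ± 2.42, *Myom3* at 2.82 ± 0.902 and *Ttn* at 1.98 ± 1.75 (SD, n = 3). The small myosin-binding protein H thus stood above the M-protein gene, and that above the remaining 6, with no overlap of libraries between *Mybph* and *Myom2* or between *Myom2* and *Mybpc1*. All neighbours from *Mybpc1* down to *Ttn* overlapped. In KO D2, *Mybph* at 54.3 ± 8.89, *Myom2* at 12.1 ± 0.217 and *Mybpc1* at 3.59 ± 0.844 CPM per kb kept the first 3 places. There, *Ttn* at 3.09 ± 3.93 CPM per kb ranged from 7.63 in replicate 1 to 0.793 in replicate 3. *Myom3* at 1.28 ± 0.193 CPM per kb was last and did not overlap *Nrap* at 2.02 ± 0.169 above it. When all annotated exons of a gene were joined to give its length, the first 3 places were unchanged, and *Myom1* moved from the fourth place to the fifth in WT and from the fifth to the seventh in KO.

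**Figure D3:**
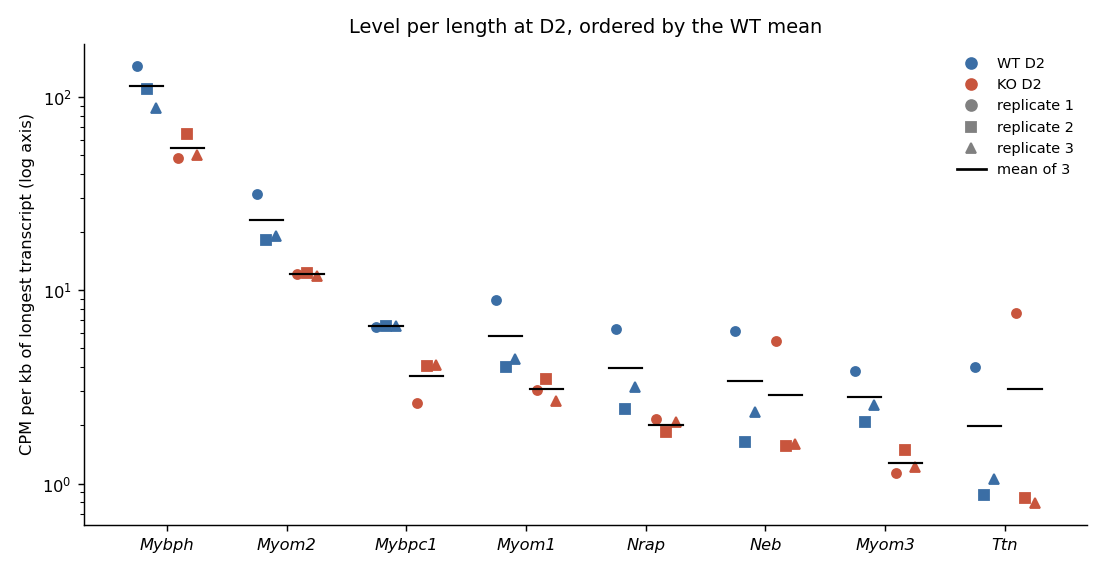
CPM per kb of longest transcript (log axis) of the 8 genes in the WT (blue) and KO (red) D2 libraries, ordered by the WT mean, with a symbol shape for each replicate and black lines for the means of 3. *Mybph* and *Myom2* stand above the others in both genotypes, and the libraries of *Ttn* in KO span 0.793 to 7.63 CPM per kb.

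Ratios between related members at D2 overlapped between the genotypes and were not tested. *Myom2* exceeded *Myom1* per length by 3.53 to 4.54-fold in the WT libraries and by 3.53 to 4.43-fold in the KO libraries. *Myom3* was at 0.428 to 0.577 of *Myom1* in WT and at 0.37 to 0.457 in KO. *Mybph* exceeded *Mybpc1* per length by 13.4 to 22.3-fold in WT and by 12.2 to 18.5-fold in KO. The ratio of *Neb* to *Ttn* was 1.54, 1.89 and 2.21 per length in WT and 0.716, 1.86 and 2.02 in KO, so that only KO replicate 1 had more *Ttn* than *Neb*.

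The second question was whether loss of LAP2α altered these genes. In Prol, 0 of the 8 were called in KO/WT by limma (0 with an unadjusted p under 0.05, and 0 with voom weights), beside 0.00566% of all genes. In D0, 0 of the 8 were called, beside 0% of all genes, and 0 had an unadjusted p under 0.05 with voom weights. One gene, *Mybpc1*, had an unadjusted p of 0.0383 in the limma fit at D0, with 1, 0 and 2 counts in WT and 0 in each KO library, which is at the detection limit, so no fold is given.

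At D2 the values of KO cells were lower for most of the 8 genes, but no difference passed the test over all genes. The 3 myomesins, *Nrap*, *Mybpc1* and *Mybph* were at 0.467 to 0.563 of their WT levels, with every KO library below every WT library for these 6 genes, a separation seen in 3.81% of all genes. *Neb* and *Ttn* did not separate, and *Ttn* had both the highest and the lowest of its D2 libraries in KO. With limma, 0 of the 8 genes and 0% of all genes were called at an adjusted p under 0.05, and the adjusted p was 1 for each of the 8. The median log2 difference of the 8 was -0.87, beside -0.01 over all genes tested. In bulk samples such as these, fewer differentiated cells and less RNA per cell cannot be told apart.

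The smallest p among the 8 was that of *Myom1*, with a log2 difference of -0.83 (SE 0.37, unadjusted p = 0.0392, limma adjusted p = 1) between 32.7 ± 15.4 CPM in WT and 17.3 ± 2.27 CPM in KO (SD, n = 3). It was the only one of the 8 to meet the 1.5-fold rule, beside 0.255% of all genes in the lower direction, and the only one with an unadjusted p under 0.05, beside 1.09%. Leaving out WT_D2 replicate 1, KO_D2 replicate 1 or KO_D2 replicate 3 ended this, with unadjusted limma p-values of 0.225, 0.0695 and 0.106. With the cut at a log2 difference of -1.5, 0 of the 8 genes met the rule, beside 0.0226% of all genes. *Myom2* followed at -0.88 (SE 0.45, unadjusted p = 0.0655, limma adjusted p = 1). The other differences were -1.10 (SE 1.18) for *Myom3*, -1.05 (SE 0.94) for *Mybph*, -0.89 (SE 0.70) for *Mybpc1*, -0.85 (SE 0.59) for *Nrap*, -0.26 (SE 0.87) for *Neb* and 0.16 (SE 1.25) for *Ttn*.

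These standard errors pool the spread of all 6 groups, including Prol and D0, where several of the 8 genes had few or no counts. When the fit held only the 6 D2 libraries, the differences were the same by construction and their standard errors ran from 0.239 for *Mybpc1* to 0.971 for *Ttn*. In that fit 6 of the 8 genes had an unadjusted p under 0.05 in the lower direction, beside 1.38% of all genes, from 0.00474 for *Mybph* to 0.0494 for *Nrap*, each with a limma adjusted p of 1. With voom weights the same 6 genes had an unadjusted p under 0.05, beside 1.91% of all genes, and 0 an adjusted p under 0.05. With 1 CPM added before taking logarithms, *Mybpc1* (log2 difference -0.84, limma adjusted p = 0.0392) and *Myom3* (-1.002, adjusted p = 0.0489) passed, as 0.158% of all genes did in the lower direction. Their standard errors were then 0.151 and 0.191, below the 0.239 and 0.289 of the fit of the 6 D2 libraries. They again pool the Prol and D0 libraries, where both genes lay at or below 0.368 CPM, so adding 1 CPM left little spread there.

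Replicate by replicate, KO was below WT of the same number in 3 of 3 pairs for 7 of the 8 genes and in 2 of 3 for *Ttn*, where the log2 differences were 0.93, -0.04 and -0.42. The share of all genes below WT in 3 of 3 pairs was not computed, so this count describes the 8 genes only. Replicate 1 gave the largest difference for *Nrap* (-1.54), *Myom1* (-1.55), *Myom2* (-1.38), *Myom3* (-1.76), *Mybpc1* (-1.31) and *Mybph* (-1.58). Replicate 2 gave -0.41 for *Nrap*, -0.21 for *Myom1*, -0.57 for *Myom2*, -0.47 for *Myom3*, -0.69 for *Mybpc1* and -0.77 for *Mybph*. Without replicate 1 of every group the differences of these 6 genes were -0.47 to -0.79, with 0 of the 8 genes at an unadjusted p under 0.05, and *Ttn* stood at -0.23 and *Neb* at -0.31. The summed myoblast markers were also lower in KO D2 (225 to 260 CPM) than in WT D2 (335 to 532 CPM), and WT D2 replicate 1 had the highest sum. *Myf5*, a marker in this sum, went the other way, with means of 20 CPM in KO D2 and 17.6 CPM in WT D2 and overlapping libraries. The summed fibroblast markers were higher in KO D2 than in WT D2 of the same number, at 24211 and 19093 CPM, 8906 and 5194 CPM, and 7069 and 5697 CPM. On average in WT D2, most of this sum came from *Col1a1* and *Col3a1*. Gene by gene, 1 of the 6 fibroblast markers was lower in KO D2, with a median log2 difference of 0.51 over the 6. In limma 0 of them were called at an adjusted p under 0.05. The part of either marker group in the result was not tested.

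**Figure D4:**
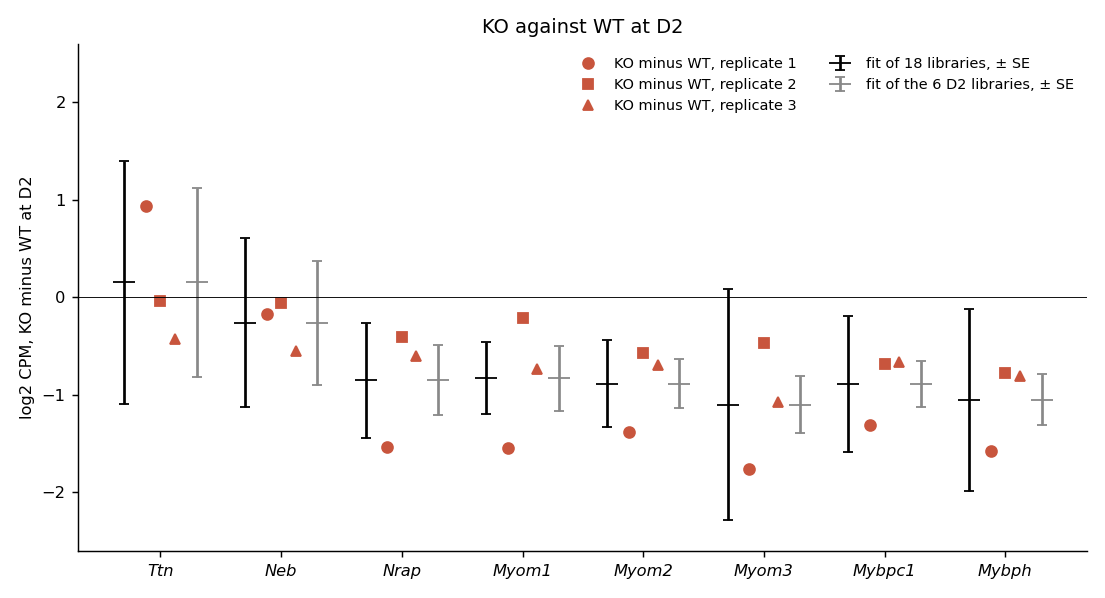
Difference in log2 CPM between KO and WT at D2 for the 8 genes, with a red symbol for each pair of libraries of the same replicate number, black bars for the fitted difference ± SE in the fit of 18 libraries and grey bars for that of the 6 D2 libraries. For 6 genes all 3 symbols lie below 0 with replicate 1 lowest, and for *Ttn* they run from 0.93 to -0.42.

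Whether the KO difference at D2 departed from that in Prol was tested as an interaction. In limma, 0 of the 8 genes were called, beside 0% of all genes, and 0 had an unadjusted p under 0.05, beside 167 of the 17672 genes tested. With voom weights 1 of the 8 had an unadjusted p under 0.05, and 0 passed the adjusted test. Without replicate 1 of every group, 3 genes (*Nrap*, *Myom2* and *Myom3*) had an unadjusted p between 0.0144 and 0.0376, and with 1 CPM added 5 genes were under 0.05, each with a limma adjusted p of 1. For the fits other than the main one the share over all genes was not counted, so these counts have no background. The largest values were -2.06 (SE 1.32, unadjusted p = 0.139) for *Mybph*, -1.49 (SE 0.84, unadjusted p = 0.0932) for *Nrap* and -1.28 (SE 0.63, unadjusted p = 0.0589) for *Myom2*, each with a limma adjusted p of 1. When single libraries were left out, that of *Mybph* lay between -3.03 and -1.22.

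The same fit gave values for genes whose proteins work beside the members. Over all genes, 16.6% rose in WT D2/Prol and 17.1% in KO D2/Prol, and 2484 and 2679 of the 17672 genes tested fell. These shares stand beside the counts of each list that follows. Of 10 M-band and titin kinase partners, 7 rose in WT D2/Prol and 5 in KO D2/Prol, and none fell. Among them in WT were *Trim55* (log2 9.46, SE 1.01), a ubiquitin ligase that binds titin, and *Ckm* (7.22, SE 0.48), the muscle creatine kinase. In KO *Trim55* rose by 7.74 and *Ckm* by 5.69. *Ckm* met the 1.5-fold rule in KO/WT D2, at 13.1 ± 1.41 CPM in WT and 6.22 ± 1.99 CPM in KO (log2 -1.11, SE 0.48, unadjusted p = 0.0337, limma adjusted p = 1).

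Of 8 Z-disc and I-band partners of titin, 7 rose in each genotype and none fell. *Capn3*, a titin-bound protease, rose by 10.11 (SE 0.85) in WT and 9.15 in KO, *Ankrd2*, a stretch-responsive repeat protein, by 8.08 (SE 0.92) and 6.13, and *Actn2*, the sarcomeric α-actinin, by 7.93 (SE 0.84) and 6.18 on the log2 scale. *Ankrd1*, of the same family as *Ankrd2*, stood at 264 CPM in WT Prol and 159 CPM in WT D2 (limma adjusted p = 0.0957). In KO/WT D2 all 8 values were negative and none was called. The share of all genes with a negative value was not counted, and their median was -0.01.

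Of 13 nebulin relatives and thin-filament length genes, 7 rose in each genotype and none fell. These included the leiomodins *Lmod3* (10.13, SE 1.08, in WT and 8.07 in KO) and *Lmod2* (8.68, SE 0.92, and 7.86), which nucleate actin filaments, and *Klhl40* (8.94, SE 0.99, and 8.17), which stabilises nebulin. The nebulin paralogs *Nebl* (1.38 CPM in WT Prol and 1.86 CPM in WT D2) and *Lasp1* (292 and 182 CPM) did not pass the test. Of 7 genes of myosin-binding paralogs and thick-filament assembly, 4 were tested, and the myosin chaperone *Unc45b* (8.53, SE 0.51) and the methyltransferase *Smyd1* (7.22, SE 0.59) rose in WT while *Hsp90aa1* fell by 1.65 (SE 0.38). In KO these changed by 7.74, 6.69 and -1.66.

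Of 10 myogenic regulators and titin splicing factors, 5 rose in each genotype and none fell, among them *Myog* (9.09, SE 0.69, in WT and 7.88 in KO), the RNA-binding protein gene *Rbm24* (7.89, SE 0.69, and 7.22) and *Myod1* (5.45, SE 0.53, and 4.12), which encodes MyoD. *Rbm20*, the splicing repressor known for titin exons, did not pass the test, at 68.5 CPM in WT Prol and 105 CPM in WT D2. *Mef2c* met the 1.5-fold rule in KO/WT D2 with 117.5, 65.8 and 69.9 CPM in WT and 52.2, 43.1 and 43.9 CPM in KO (log2 -0.82, SE 0.35, unadjusted p = 0.0327, limma adjusted p = 1). In KO/WT D2 the values were negative for 9 of these 10 genes, and the median was -0.54, beside -0.01 over all genes tested. The share of all genes with a negative value was not counted. The medians in KO/WT D2 were -0.56 for the M-band partners, -0.79 for the Z-disc and I-band partners, -0.67 for the nebulin relatives and -0.41 for the thick-filament genes, and 0 genes of these lists were called at an adjusted p under 0.05.

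The genes most like each member over the 18 libraries were ranked by Pearson correlation of log2 CPM among 10759 genes with at least 10 CPM in 1 library. Since the libraries fall into D2 and earlier ones, these values describe mainly a shared step and carry no test. *Mybph* had the highest values, with *Casq2* (r = 0.997), *Acta1* (0.997) and *Mymk* (0.996), the genes of calsequestrin, skeletal actin and the fusion protein myomaker. *Myom2* was nearest to *Ryr1* (0.992), *Mymk* (0.992) and *Actc1* (0.992), and *Myom1* to *Stac3* (0.993), *Trim63* (0.987) and *Tnnc1* (0.986). *Myom3* was nearest to *Atp2a1* (0.981), *Capn3* (0.980) and *Rbm24* (0.979), *Mybpc1* to *Cacng1* (0.984), *Dok7* (0.981) and *Ryr1* (0.980), and *Nrap* to *Tmod1* (0.986), *Des* (0.985) and *Ccdc141* (0.984). *Neb* was nearest to *Erbb3* (0.985), *Mylk4* (0.983) and *Sntb1* (0.982), and *Ttn* to *Mxd1* (0.978), *Podn* (0.978) and *Zfp354c* (0.976), of which *Podn* encodes a proteoglycan of the extracellular matrix and *Mxd1* a partner of MAX. Among the members themselves, r ran from 0.915 for *Ttn* and *Myom1* to 0.985 for *Myom2* and *Mybph*.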

How the data were processed

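Per the methods of the study, polyA RNA was sequenced in single reads of 50 bases, trimmed with cutadapt, mapped with NextGenMap to the GRCm38 transcriptome and quantified with RSEM, and expected counts were summed to genes with tximport. The deposited values are CPM on which the authors had used TMM factors (edgeR) and 0.5 added counts, the form voom gives. They are written with a decimal comma. Expected counts were recovered by reversing that form. Running voom on them returned log2 of the deposited CPM to within 1.8e-15, which follows by construction and does not check the unit. Recovered counts under 20 were whole in 36% to 49.1% of cases (tolerance 0.01), so no count test was used.

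From these values, limma 3.58.1 in R 4.3.3 (lmFit, eBayes with a variance trend) was fitted to log2 CPM with 6 groups and 18 libraries, for the 17672 genes whose expected counts exceeded 5 in every library of 1 group or more. Adjusted p-values are Benjamini-Hochberg over these genes. "Rose" and "fell" mean an adjusted p under 0.05. The 1.5-fold rule was set with the fold on a linear scale, while the methods of the study put a cut of 1.5 on log2, and both were counted. Higher in WT D2/Prol were 1906 genes with the linear cut and 780 with the log2 cut. The number of upregulated genes that the study reports there is nearer to the first, so its printed cut may not be the one it used. The sequencing lane used in the study is not in the labels and was left out. The script was tested on simulated data. Same-numbered libraries deviated together: the correlation of their deviations from the group means was over 0.1 for each number in 7 of 9 comparisons of 2 groups, all 3 of KO/WT included (0.163 to 0.645), so a replicate block was fitted as well. Ratios of pooled counts have exact (Clopper-Pearson) 95% intervals.

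The members, gene lists and tests were chosen with earlier results of these data known. Named genes are the members, up to 3 called genes of each partner list with the largest change in WT D2/Prol, list genes called in a KO/WT comparison, and the 3 genes most like each member. One gene that this rule names among the M-band partners is not reported here. *Ankrd1*, *Nebl*, *Lasp1*, *Rbm20*, *Myf5*, *Col1a1* and *Col3a1* were named after their values were seen. Each fit was repeated with other scaling (median of ratios, or totals alone), weights from voom, no filter or one at 10 CPM, 1 CPM added, the block, only the groups compared, joined exons as length, and each library left out. The log2 cut and the fits without replicate 1 of every group and with a length trend removed were added after seeing the data. Transcript lengths are from GENCODE M21, promoters from RefSeq, and figures were drawn with matplotlib 3.10.9.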

Additional observations from a re-analysis of the deposited data

How the results depend on the processing

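Every count of members called higher from Prol or D0 to D2 stayed at 8 of 8 in both genotypes under all alternatives. The counts in the other comparisons stayed at 0 except in KO/WT D2 with 1 CPM added. There, 2 genes with few counts before D2 were called. Single values were recomputed for the comparisons with D2 and the interaction, and were not run for those within Prol and D0 or between them. Adding the replicate block left 0 of 8 members called in KO/WT D2 as a fixed factor and 0 with voom as a random block (log2 difference of *Myom1* -0.83 and -0.82), and it changed no other call at an adjusted p under 0.05. At an unadjusted p under 0.05, the fixed block moved the count of members in the interaction from 0 to 1, and the random block with voom weights moved it to 3. The share over all genes was not counted for these interaction fits.

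In KO/WT D2, 6 members kept their negative sign in every setting and *Ttn* and *Neb* did not. *Ttn* ranged from -0.916 to 0.841 and *Neb* from -0.853 to 0.289 when single libraries were left out. *Ttn* was -0.232 without replicate 1 of every group and -0.312 with the length trend removed. With KO_D2 replicate 1 left out, *Ttn* was at -0.916, and with WT_D2 replicate 1 left out, *Neb* was at 0.289. *Myom1* ranged from -1.045 to -0.467, and it lost its unadjusted p under 0.05 without WT_D2 replicate 1, KO_D2 replicate 1 or KO_D2 replicate 3, after which 0 members met the 1.5-fold rule. With voom weights, with or without the random block, with only the D2 libraries or with 1 CPM added, 6 members met it, and with the log2 cut at 1.5, added after seeing the data, 0 did. Over all genes, 45 met the 1.5-fold rule in the lower direction and 193 had an unadjusted p under 0.05. These counts were 126 and 338 with voom weights, 92 and 488 with the fixed block, and 166 and 658 with voom weights and the random block together.

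The interaction changed sign for 3 members. With libraries left out, *Ttn* ranged from -1.104 to 0.653, *Neb* from -0.411 to 0.78 and *Mybpc1* from -0.5 to 1.007. With 1 CPM added the values were 0.048, -0.137 and -0.786, with voom weights *Ttn* was 0.024, and without replicate 1 of every group *Neb* was -0.297 and *Mybpc1* -0.5. The number of members with an unadjusted p under 0.05 in the interaction, 0 as reported, was 3 without WT_Prol replicate 1 and 2 with only the libraries compared. In those fits, too, the share over all genes was not counted. With 1 CPM added, the log2 fold change of *Mybph* fell to 7.7 in WT D2/Prol and 6.52 in KO D2/Prol. The causes were not tested. Levels per kb on joined exons were 13.2 and 6.92 for *Myom2* in WT and KO D2, 5.63 for *Mybpc1* in WT and 1.66 for *Myom1* in KO. Before D2, *Myom3*, *Mybpc1* and in part *Mybph* were at a few counts per library, so differences between WT and KO there were measured with little precision. The size of difference that could be detected at this depth was not computed.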
